A study of Homo sapiens with 6 samples.

Results

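The interferon response and antigen presentation genes examined here were 49 genes of the 40173 in the deposited table. They were taken by gene symbol from a list drawn up with earlier results of these data known, by a rule that itself used no measured value, and the transcript rows of each gene were summed. The list holds class I antigen presentation genes (5 class I chains and 3 peptide loading genes), 4 interferon receptor chains, 3 receptor kinases, 6 transcription factors, 6 genes of RNA sensing and editing, and 22 antiviral effector genes. RNA came from HCT116, an established human colorectal cancer line grown in serum-containing medium. Cells of 1 group received a MOCK control lentivirus, and their genotype is labelled wild type. Cells of the other group received a lentivirus that drives constant expression of the CYGB coding region fused to FLAG. CYGB encodes cytoglobin, a heme-containing globin. Both groups were transduced and then selected with puromycin as stable populations, so the levels below are those of transduced, selected cells. Each group had 3 libraries described as biological replicates. Whether these came from separate transductions is not stated in the sources used here, and p-values measure only the spread between these libraries.

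Interferons are secreted proteins through which infected or damaged cells warn themselves and their neighbours. Type I interferon binds the receptor chains IFNAR1 and IFNAR2, the attached kinases JAK1 and TYK2 become active, and a factor containing STAT2 and IRF9 binds interferon-stimulated response elements (ISRE) near the start of antiviral genes. Type II interferon binds IFNGR1 and IFNGR2, acts through JAK1 and JAK2, and uses gamma-activated sites (GAS). Cultured cells can keep a low tonic activity of these genes without added interferon. Class I presentation, in which peptides of the cell's own proteins are shown to cytotoxic T cells, is raised by both types of interferon.

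The letters that the pathway's factors read stand in the promoters of many of these genes. Promoters from RefSeq (assembly GRCh38.p14), covering 250 bases before to 50 bases after each start, were found for 39 of the 49 genes. The ISRE core was searched as GAAANNGAAA and on the other strand as TTTCNNTTTC, and the GAS as TTCNNNGAA, which reads the same on both strands; overlaps between the motifs were allowed. A gene was counted when any of its promoters, at most 4 for genes of the list, held the motif. An ISRE stood in 21 of the 39 genes (53.8%), against 4.38% of all 27305 genes counted in the same way, and a GAS in 9 (23.1%), against 9.38%. Of all 35116 single promoters, 3.57% held an ISRE and 7.66% a GAS. TAP1, MX1, IFI27, IFITM1 and BST2 held both. These counts describe letters in a window and not bound sites. Below, 40 bases around an ISRE are shown 5′ to 3′ on the gene's strand, with every ISRE core of the window in capitals. The windows of ISG15, B2M and TAP1 hold 2 overlapping cores and those of IFIT1 and IFI27 hold 2 separate ones. They were chosen because they run from the most to the least abundant gene of the list and include class I presentation genes.

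ISG15: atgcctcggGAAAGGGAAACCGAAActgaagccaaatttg
IFITM3: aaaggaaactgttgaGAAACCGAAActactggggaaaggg
B2M: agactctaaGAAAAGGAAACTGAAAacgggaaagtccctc
IFI6: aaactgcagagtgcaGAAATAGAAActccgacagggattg
IFIT1: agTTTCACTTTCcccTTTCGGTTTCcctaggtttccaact
TAP1: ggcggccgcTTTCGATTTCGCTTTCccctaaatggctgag
IFI27: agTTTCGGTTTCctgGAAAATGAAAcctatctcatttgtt
MX1: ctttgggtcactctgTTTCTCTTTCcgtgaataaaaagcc
IFI44L: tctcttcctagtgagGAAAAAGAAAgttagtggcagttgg

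The windows lie at chr1:1013375-1013414 (plus strand) for ISG15, chr11:320871-320910 (minus strand) for IFITM3, chr15:44711364-44711403 (plus strand) for B2M and chr1:27672261-27672300 (minus strand) for IFI6. Those of the other genes are chr10:89392505-89392544 (plus strand) for IFIT1, chr6:32853808-32853847 (minus strand) for TAP1, chr14:94110626-94110665 (plus strand) for IFI27, chr21:41431839-41431878 (plus strand) for MX1 and chr1:78620360-78620399 (plus strand) for IFI44L. The core at the centre of each window began between 35 bases (IFITM3) and 196 bases (MX1) before the start. In ISG15 and IFITM3 the central core had the same letters.

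Levels of genes with and without the motif overlapped. The 21 genes with an ISRE had a median per-length level of 19.6 (range 0.0198 to 1542), and the 18 genes with a promoter but no ISRE had a median of 30.9 (range 2.60 to 441). A per-length level is the count per kilobase of transcript, summed over the transcripts of a gene and scaled to a total of 1000000 per library, and it is the scale used here to compare different genes.

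Library totals (counts) were 58138393 to 65252059 in MOCK and 61601071 to 66035266 in CYGB-overexpressing cells. CYGB itself lay between 0.212 and 0.661 CPM (counts per 1000000 of the normalized library size) in MOCK and between 545 and 692 CPM in CYGB-overexpressing cells (log2 fold change 10.35, Benjamini-Hochberg adjusted p = 0.00226 in edgeR's quasi-likelihood test). The 6 epithelial markers EPCAM, CDH1, KRT8, KRT18, KRT19 and VIL1 summed to 4111 to 4583 CPM in MOCK and 4182 to 4470 CPM in CYGB-overexpressing cells, although VIL1 reached at most 0.787 CPM. Of the leukocyte markers, PTPRC reached at most 0.233 CPM, CD3E 0.151 CPM and CD14 0.324 CPM in any library, with PTPRC and CD3E at 0 counts in 3 libraries each. The 3 endothelial markers PECAM1, VWF and CDH5 summed to 0.551 to 1.96 CPM. Of the 3 fibroblast markers COL1A1, COL3A1 and DCN, COL1A1 alone stood at 44.3 to 53.8 CPM, with DCN at 0 counts in 4 libraries. In bulk RNA, a lower share of expressing cells and less RNA per cell cannot be told apart.

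ISG15, a ubiquitin-like protein that is attached to other proteins during the antiviral response, had the highest level of the list at 1542 per length (range 1417 to 1610 over the 6 libraries), above 99.6% of the genes tested. IFITM3, HLA-C and B2M followed with levels of 504, 441 and 416, and HLA-E, ADAR and IFI6 with 177, 134 and 132. These 7 genes were at 100 or more per length, 31 genes lay from 10 to 100, 8 from 1 to 10 and 3 (OAS2, MX2 and IFI44L) under 1. The median of the 47 genes with enough counts for a test was 25.4 per length, against 8.25 over all genes tested. Of the 48 neighbouring pairs in this order, 42 had overlapping ranges. The gaps that exceeded the range over libraries were those after ISG15, B2M, HLA-E, IFI6, IRF1 and IFITM1, so that most genes of the middle of the order cannot be ranked against their neighbours.

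**Figure D1:**
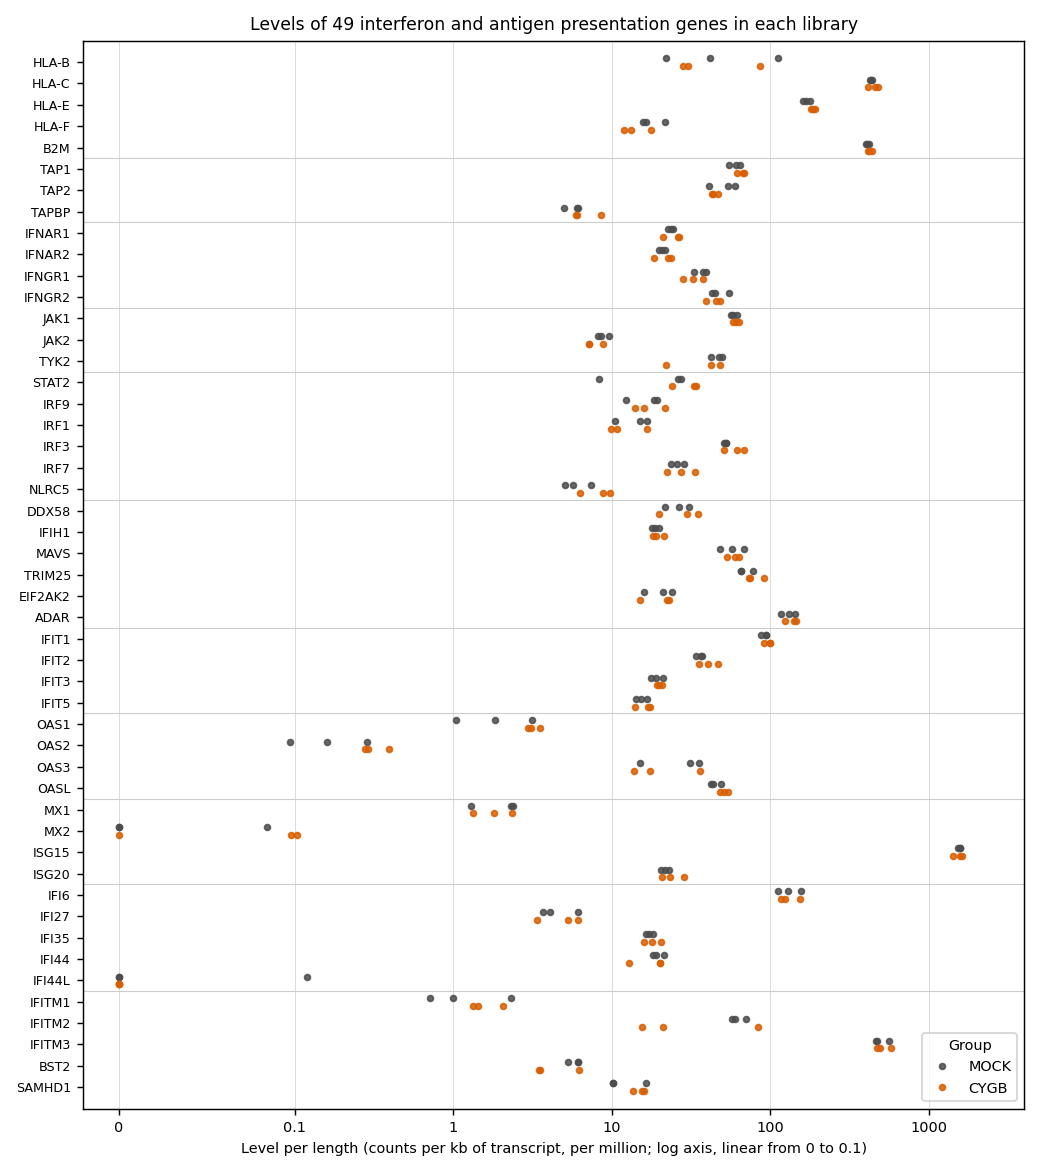
Per-length level of the 49 genes in each of the 6 libraries, on a log axis that is linear between 0 and 0.1, with MOCK in grey and CYGB-overexpressing cells in orange and lines between role groups. ISG15 sits alone near 1542 and the points of both groups mostly coincide, with wide scatter for HLA-B, STAT2, IFITM2 and OAS3.

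The comparison of CYGB-overexpressing with MOCK cells asked whether the level of any of these genes differed between the groups. At the threshold of the study's methods (unadjusted p of at most 0.01 and a ratio of at least 2 or at most 0.5), 0 of the 47 tested genes passed, where 0.565% of all 19987 tested genes passed. DESeq2 also put 0 past it, against 1.32% of all genes it tested. At an adjusted p under 0.05, 0 passed by edgeR's quasi-likelihood test and 0 by DESeq2, against 0.055% of all genes by edgeR and 0.543% by DESeq2. The lowest adjusted p of the list was 0.963 by edgeR. An unadjusted p of at most 0.05 was reached by 1 gene (2.13%) by either tool, TRIM25, against 4.54% of all genes by edgeR and 6.16% by DESeq2. In CPM the groups did not overlap for 3 genes (6.38%), TRIM25, NLRC5 and OAS2, against 11% of all genes. On the per-length scale the groups of each of these 3 genes overlapped. Those of HLA-E, which overlapped in CPM, did not overlap per length (at most 177.9 in MOCK and at least 179.9 in CYGB-overexpressing cells). The share of all genes without overlap on the per-length scale is not given here. Each share of the list was below that of all genes, but counts this small among 47 genes cannot set the list apart from all genes. The fitted log2 fold change, CYGB over MOCK, was above 0 for 30 genes and below 0 for 17, with a median of 0.041, against -0.0070 over all genes tested.

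The precision of these differences varied widely among the genes. The median standard error of the log2 fold change was 0.15, and 37 genes (78.7%) had an absolute log2 fold change under 0.25, against 60.5% of all genes. The 95% interval of the difference lay within 1.5-fold either way for 28 genes and within 2-fold either way for 38. For the other 9 genes, HLA-B, TYK2, STAT2, OAS1, OAS2, OAS3, IFITM1, IFITM2 and BST2, the interval reached 2-fold, so differences of that size lie inside it. The genes of the list were more deeply counted than the rest, with a median of 1735 counts per library against 498, and the highest library of a group exceeded the lowest by a median of 1.37-fold, against 1.68-fold over all genes.

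**Figure D2:**
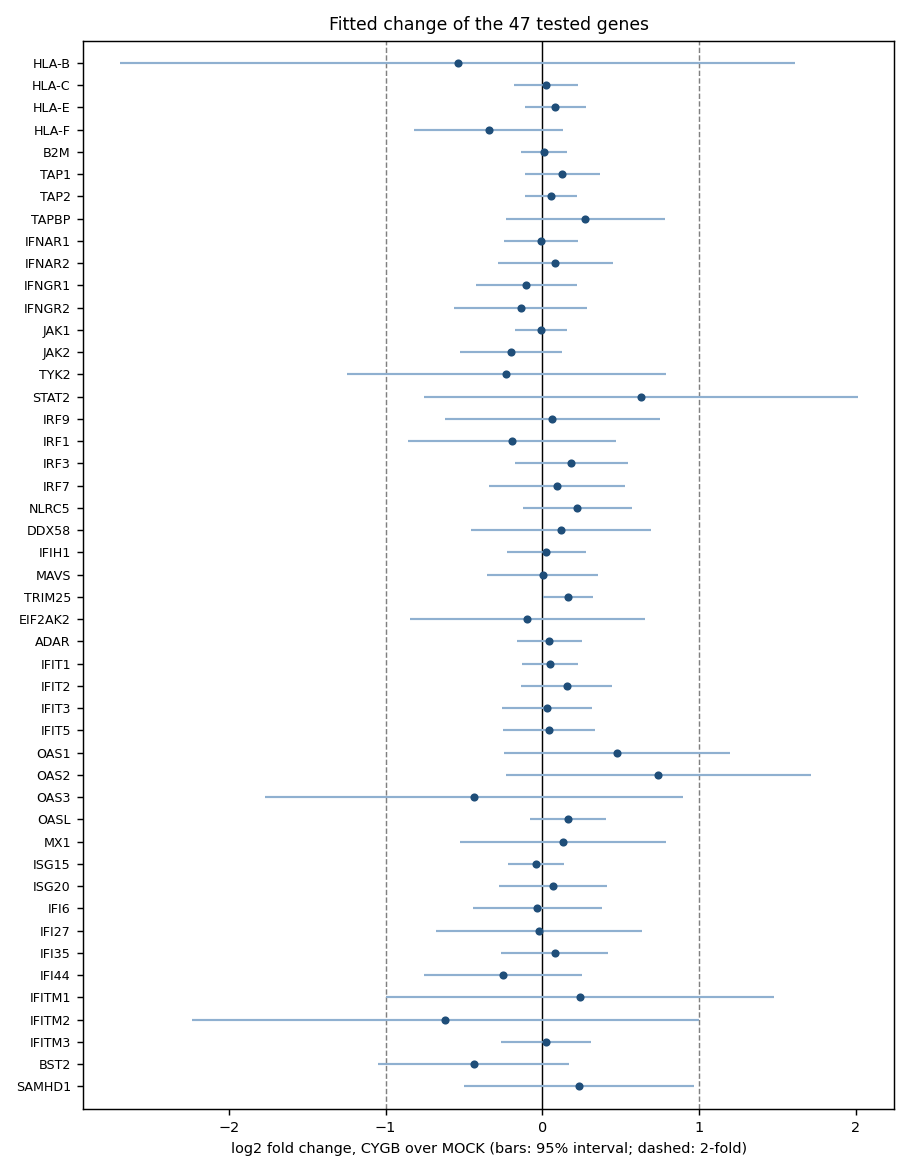
Fitted log2 fold change of CYGB over MOCK for the 47 tested genes (points) with 95% intervals (bars) from edgeR's quasi-likelihood fit, 3 libraries per group, and dashed lines at 2-fold either way. The interval of TRIM25 alone lies clear of 0, and only with all 6 libraries in the fit, and those of HLA-B, STAT2, OAS3 and IFITM2 are the widest.

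Among the class I chains, HLA-C, a classical heavy chain that presents peptides and is read by natural killer cells, and B2M, the light chain shared by all class I molecules, had the highest per-length levels, with overlapping ranges. HLA-C stood at 382, 368 and 359.5 CPM in MOCK and at 348, 366 and 414 CPM in CYGB-overexpressing cells. The groups overlapped, and the log2 fold change was 0.024 (95% interval -0.18 to 0.23). B2M was as steady, at 359, 356 and 354 CPM against 346, 365 and 365 CPM, with a log2 fold change of 0.011 (95% interval -0.13 to 0.15). HLA-E, a non-classical chain that presents leader peptides to natural killer cells, ranged from 209 to 248 CPM over the 6 libraries (log2 fold change 0.084), and HLA-F from 6.57 to 11.8 CPM (log2 fold change -0.34, 95% interval -0.82 to 0.13). HLA-F overlaps HLA-F-AS1 on the opposite strand, which had 411 to 703 counts per library, and whether the counting used strand is not stated.

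HLA-B, the other classical heavy chain on the list, behaved differently from HLA-C in its spread. Its values were 72.8, 9.84 and 16.6 CPM in MOCK and 12.3, 43.8 and 12.2 CPM in CYGB-overexpressing cells. A single library of each group stood high, MOCK replicate 1 and CYGB replicate 2, and the groups overlapped. In the fit the log2 fold change was -0.54 (standard error 0.88), and it became 0.78 without MOCK replicate 1. The scatter came with 1 transcript, HLA-B-249, which encodes 362 residues and had 2507, 0 and 140 counts in the MOCK libraries against 0, 1204 and 0 in the CYGB libraries. The annotated HLA-B locus (chromosome 6 of GRCh38 from 31269491 to 31357188, minus strand) contains part of HLA-C on the same strand. The class I genes are also near copies of each other, and how reads matching several of them were counted is not stated, so the division between HLA-B and HLA-C is uncertain. HLA-C stood at 382 CPM in MOCK replicate 1, where HLA-B was highest, and whether reads moved between them was not tested.

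Peptides reach the class I chains through the transporter of TAP1 and TAP2 in the endoplasmic reticulum membrane, to which tapasin (TAPBP) tethers the empty chain. TAP1 had the highest mean level per length, with a range that overlapped that of TAP2, and it measured 90.3, 80.9 and 96.2 CPM in MOCK against 90.9, 98.6 and 102.6 CPM in CYGB-overexpressing cells. Its groups overlapped, with a log2 fold change of 0.13 (95% interval -0.11 to 0.37). TAP2 ranged from 116 to 125 CPM (log2 fold change 0.054, 95% interval -0.11 to 0.22). TAPBP was far lower, at 4.29 to 7.11 CPM, with its highest value in CYGB replicate 1 (log2 fold change 0.28, 95% interval -0.23 to 0.78). All 3 values were above 0 and none of the 3 reached an unadjusted p of 0.05, the lowest being 0.234 by edgeR.

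The receptor chains and the kinases bound to them were detected in every library. IFNGR2, the signalling chain of the type II receptor, had the highest level per length of the receptor chains at 45.8. It stood at 63.9, 46.5 and 49.9 CPM in MOCK and 54.0, 40.2 and 51.2 CPM in CYGB-overexpressing cells (log2 fold change -0.14, 95% interval -0.56 to 0.28). In CPM, which does not allow for length, IFNAR1 was higher in every library. IFNGR1, the ligand-binding chain, ranged from 34.4 to 44.8 CPM (log2 fold change -0.10), IFNAR1 from 64.5 to 76.8 CPM (log2 fold change -0.0076) and IFNAR2 from 25.5 to 34.6 CPM (log2 fold change 0.083). The intervals of all 4 chains lay within 1.5-fold of no difference, which bounds the difference between the groups for both receptor pairs.

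JAK1, the kinase that serves both receptor types, was among the steadiest genes of the list. It stood at 141, 143 and 151.5 CPM in MOCK and at 142, 147 and 144 CPM in CYGB-overexpressing cells, a log2 fold change of -0.0099 (95% interval -0.17 to 0.15). JAK2, the partner kinase of the type II receptor, ranged from 18.4 to 24.5 CPM with a log2 fold change of -0.20 (95% interval -0.52 to 0.13). TYK2, the partner kinase of the type I receptor, measured 72.1, 47.1 and 60.4 CPM in MOCK and 59.9, 22.8 and 70.6 CPM in CYGB-overexpressing cells. CYGB replicate 2 was the low library, and the log2 fold change of -0.23 (standard error 0.42) became 0.12 without it.

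Of the transcription factors, IRF3, which is held latent in the cytoplasm until a sensor activates it, had the highest level per length. Its values were 40.4, 36.0 and 38.1 CPM in MOCK and 48.9, 35.3 and 45.8 CPM in CYGB-overexpressing cells (log2 fold change 0.18, 95% interval -0.18 to 0.54). IRF7, its interferon-inducible relative, ranged from 18.8 to 27.5 CPM (log2 fold change 0.091), IRF1 from 15.9 to 28.4 CPM (log2 fold change -0.19) and IRF9, the DNA-binding partner of STAT2, from 8.65 to 16.8 CPM (log2 fold change 0.065). IRF3 overlaps BCL2L12 on the opposite strand, and whether the counting used strand is not stated, so reads from bases that the pair shares cannot be told apart. The same limit holds for IRF1, which overlaps C5orf56 and AC116366.3 on the opposite strand. IRF9 overlaps AL136295.5 on the same strand. In the whole list 21 genes overlap another tested gene, and not all of these overlaps are named here.

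STAT2, on chromosome 12 from 56341597 to 56360155 (minus strand), carried the largest scatter of this group. It measured 7.58, 35.7 and 36.1 CPM in MOCK and 46.0, 30.8 and 46.0 CPM in CYGB-overexpressing cells. MOCK replicate 1 lay far below the other 5 libraries, and CYGB replicate 2 lay below 2 of the MOCK libraries, so the groups overlapped. The log2 fold change of 0.63 (standard error 0.57) was 0.19 without MOCK replicate 1. Its partner IRF9 was not low in that library, at 13.7 CPM.

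NLRC5, the transactivator of class I genes, was low, at 8.32, 7.38 and 8.98 CPM in MOCK and 10.0, 9.43 and 9.37 CPM in CYGB-overexpressing cells. In CPM all 3 CYGB libraries were above all 3 MOCK libraries, with a MOCK mean of 8.22 ± 0.801 CPM (SD, n = 3) against 9.60 ± 0.359 CPM. Per length the groups overlapped, with 7.35 in MOCK replicate 3 and 6.31 in CYGB replicate 3. The log2 fold change of 0.22 (standard error 0.14) did not reach the threshold, with adjusted p = 0.963 by edgeR's quasi-likelihood test. HLA-C, B2M, TAP1 and HLA-E, class I genes named above, overlapped between the groups in CPM. Per length HLA-E did not overlap, with 177.9 in the highest MOCK library and 179.9 in the lowest CYGB library.

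RNA sensing starts with DDX58 (RIG-I) and IFIH1 (MDA5), helicases that bind viral double-stranded RNA and signal through MAVS on mitochondria. DDX58 ranged from 45.4 to 75.8 CPM (log2 fold change 0.12), IFIH1 from 30.5 to 34.0 CPM (log2 fold change 0.026) and MAVS from 289 to 407 CPM (log2 fold change 0.0014). EIF2AK2 (PKR), a kinase that halts translation on binding double-stranded RNA, ranged from 53.4 to 114 CPM (log2 fold change -0.096, 95% interval -0.85 to 0.65). The lowest and highest values of DDX58 fell in CYGB-overexpressing cells and those of MAVS in MOCK.

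TRIM25, the ubiquitin ligase that modifies RIG-I, lies on chromosome 17 from 56836387 to 56914080 (minus strand). It stood at 194.5, 185 and 187 CPM in MOCK and at 212, 205 and 218 CPM in CYGB-overexpressing cells, a mean of 189 ± 5.05 CPM (SD, n = 3) against 211 ± 6.32 CPM. In CPM the lowest CYGB library was above the highest MOCK library. Per length the groups overlapped, with 77.1 in MOCK replicate 3 and 73.2 in CYGB replicate 1. The log2 fold change was 0.16 (standard error 0.065, 95% interval 0.0059 to 0.32), a ratio of 1.12, and with adjusted p = 0.963 by edgeR's quasi-likelihood test it did not pass the correction over all genes. Its unadjusted p exceeded 0.05 without a filter, with the replicate number as a block and without any single library. ADAR, which edits adenosine in double-stranded RNA and so keeps the cell's own RNA from the sensors, was the most abundant of this group. ADAR measured 365, 384 and 409 CPM in MOCK and 364, 409 and 421 CPM in CYGB-overexpressing cells (log2 fold change 0.044, 95% interval -0.16 to 0.25).

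The IFIT proteins bind viral RNA that lacks the host's cap marks, and their 4 genes were among the least variable of the effectors. IFIT1 was the most abundant, with 86.5, 91.1 and 91.1 CPM in MOCK and 95.6, 93.2 and 89.3 CPM in CYGB-overexpressing cells (log2 fold change 0.049, 95% interval -0.13 to 0.23). IFIT2 ranged from 53.4 to 72.3 CPM (log2 fold change 0.16), IFIT3 from 22.7 to 26.9 CPM (log2 fold change 0.030) and IFIT5 from 29.5 to 35.4 CPM (log2 fold change 0.041). All 4 values were above 0 and the groups overlapped for each gene. IFIT1, IFIT2 and IFIT3 overlap LIPA on the opposite strand, which had 1658 to 3752 counts. Reads from bases shared with LIPA cannot be told apart without strand, and how many such reads there were was not tested.

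The oligoadenylate synthetases OAS1, OAS2 and OAS3 make the second messenger that activates RNase L, and OASL is a relative without that activity. Their levels were widely separated, from OASL at 48.1 per length to OAS2 at 0.25. OASL stood at 67.1, 67.3 and 75.3 CPM in MOCK and at 72.7, 77.8 and 84.4 CPM in CYGB-overexpressing cells (log2 fold change 0.16, 95% interval -0.076 to 0.40). OAS1 had only 41, 70 and 91 counts in the MOCK libraries against 98, 81 and 104 in the CYGB libraries, with a log2 fold change of 0.48 (standard error 0.30). OAS2 had 18, 10 and 20 counts in the MOCK libraries against 32, 28 and 22 in the CYGB libraries. Its groups did not overlap in CPM but lay close, with the nearest libraries 20 counts (MOCK) and 22 counts (CYGB). Per length they overlapped, with 0.284 in MOCK replicate 1 and 0.278 in CYGB replicate 2. The log2 fold change of OAS2, 0.74 (standard error 0.40, 95% interval -0.23 to 1.71), had adjusted p = 0.963 by edgeR's quasi-likelihood test.

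OAS3 was abundant but uneven, with 35.0, 108.7 and 92.7 CPM in MOCK and 40.8, 98.0 and 35.9 CPM in CYGB-overexpressing cells. High and low libraries occurred in both groups, and almost all of the counts came from 1 transcript, OAS3-201, which had between 1485 and 5619 counts. This gave a log2 fold change of -0.44 (standard error 0.55), which ran from -1.04 without CYGB replicate 2 to -0.13 without MOCK replicate 2. OAS1, its neighbour on chromosome 12, was also lowest in MOCK replicate 1, but its highest count was in CYGB replicate 3, where OAS3 was low.

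ISG15 stood at 587, 557 and 569.8 CPM in MOCK and at 512, 567 and 587 CPM in CYGB-overexpressing cells. The groups overlapped, and the 95% interval of the log2 fold change of -0.041 ran from -0.22 to 0.14. ISG20, an RNA exonuclease, ranged from 20.3 to 25.7 CPM (log2 fold change 0.067). The dynamin-like antiviral GTPases MX1 and MX2 were low. MX1 ranged from 1.38 to 2.40 CPM (log2 fold change 0.13). MX2 had 0, 0 and 8 counts in MOCK and 8, 0 and 9 in CYGB-overexpressing cells and was not tested. A count of 0 in a library allows a level of up to 0.0571 to 0.0635 CPM (3 counts, counting error only).

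The IFI genes are named only for their induction by interferon. IFI6, a small membrane protein, was the most abundant, with 68.4, 55.8 and 47.8 CPM in MOCK and 49.8, 64.2 and 54.4 CPM in CYGB-overexpressing cells (log2 fold change -0.031, 95% interval -0.44 to 0.38). IFI27 ranged from 1.88 to 3.33 CPM (log2 fold change -0.020), IFI35 from 9.39 to 11.6 CPM (log2 fold change 0.079) and IFI44 from 7.42 to 12.6 CPM (log2 fold change -0.25). IFI44L, the neighbour of IFI44 on chromosome 1, had 3 counts in MOCK replicate 2 and 0 in the other 5 libraries and was not tested. The per-length level of IFI44 was 18.6 and that of IFI44L 0.0198, although both promoters held an ISRE.

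The last group restricts viruses at membranes or by limiting nucleotides. IFITM3, which blocks fusion in endosomes, measured 196, 232 and 194 CPM in MOCK and 235, 188 and 208 CPM in CYGB-overexpressing cells (log2 fold change 0.021, 95% interval -0.27 to 0.31). IFITM1, its relative at the cell surface, had only 16 to 49 counts per library (log2 fold change 0.24, standard error 0.51). BST2 (tetherin), which holds budding virions at the surface, stood at 2.82, 3.08 and 3.05 CPM in MOCK and at 1.76, 2.97 and 1.87 CPM in CYGB-overexpressing cells. CYGB replicate 2 lay within the MOCK range, and the log2 fold change was -0.44 (standard error 0.25). SAMHD1, which breaks down deoxynucleotides, ranged from 20.4 to 40.3 CPM, with both ends in MOCK (log2 fold change 0.23, standard error 0.30).

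IFITM2, the endosomal relative of IFITM3, was the gene whose call turned on 1 library. It stood at 31.7, 25.2 and 26.5 CPM in MOCK and at 6.75, 8.95 and 38.6 CPM in CYGB-overexpressing cells. CYGB replicates 1 and 2 were below every MOCK library, and CYGB replicate 3 was above every MOCK library. The log2 fold change was -0.62 (standard error 0.66) with adjusted p = 0.964 by edgeR's quasi-likelihood test. Without CYGB replicate 3 it was -1.82, past the threshold of the methods, with adjusted p = 0.201 by edgeR. The adjusted p ranged from 0.201 to 1.00 over all alternatives. IFITM2 overlaps IFITM1 on the same strand, and the IFITM genes are near copies, so the division of reads among them is uncertain. IFITM3 in CYGB replicates 1 and 2 was at 235 and 188 CPM and IFITM1 at 29 and 31 counts.

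**Figure D3:**
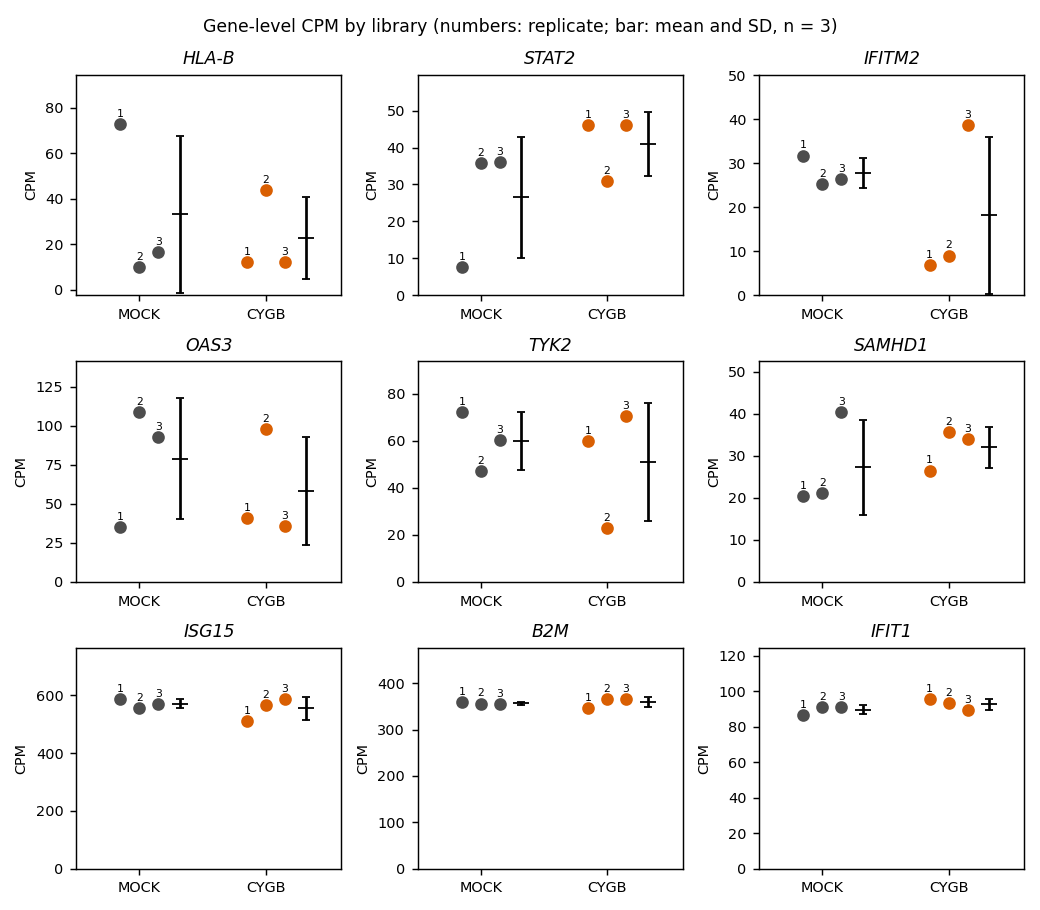
CPM of 9 genes in each library (points, numbered by replicate) with the mean and SD of each group (n = 3). The upper 6 panels are genes with a wide spread, chosen after their values were seen, in which MOCK replicate 1 is the highest (HLA-B, TYK2) or lowest (STAT2, OAS3, SAMHD1) of the 6 libraries in 5 panels, and the lower 3 are ISG15, B2M and IFIT1, whose libraries lie close together. In TYK2, OAS3 and SAMHD1 another library lies close to MOCK replicate 1.

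The highest library of a group exceeded the lowest at least 2-fold for 8 of the 47 tested genes (17.0%), against 39.0% of all genes tested. These were HLA-B, TYK2, STAT2, OAS1, OAS2, OAS3, IFITM1 and IFITM2. MOCK replicate 1 was the library that recurred: of all 6 libraries it was highest for HLA-B, TYK2 and IFITM1 and lowest for STAT2, OAS1 and OAS3. CYGB replicate 3 came close to it for TYK2 (70.6 against 72.1 CPM), OAS3 (35.9 against 35.0 CPM) and IFITM1 (48 against 49 counts). How often MOCK replicate 1 was the extreme library over all tested genes is not given here. CYGB replicate 2 was lowest for TYK2, CYGB replicate 3 was highest for IFITM2, and MOCK replicate 2 was lowest for OAS2. Without MOCK replicate 1, 0 of the 47 genes passed the threshold of the methods.

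The table's own rows are transcripts, and how reads were divided among the transcripts of a gene is not stated. Of 190 transcripts of the list that were tested, 2 (1.05%) passed the threshold of the methods, against 1.02% of all 66609 tested transcripts, and 7 (3.68%) had an unadjusted p of at most 0.05, against 3.78%. At an adjusted p under 0.05, 0 passed by edgeR's quasi-likelihood test, against 0.015% of all transcripts, and 1 by DESeq2, against 1.14% of all transcripts. By DESeq2, 7 of at most 190 passed the threshold of the methods, a share above the 2.3% of all transcripts. The shares of both edgeR counts above 0 were near those of all transcripts.

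STAT2-205, a transcript annotated to be degraded by nonsense-mediated decay, had 12, 15 and 13 counts in MOCK and 0 in each CYGB library. Its mean of 0.265 ± 0.0185 CPM (SD, n = 3) in MOCK was at least 4.45-fold higher than the level that 3 counts in a library would give in CYGB-overexpressing cells. The adjusted p was 0.407 by edgeR's quasi-likelihood test and 0.000967 by DESeq2, with a range of 0.000967 to 0.995 over 11 alternatives. The threshold of the methods was no longer passed with the replicate number as a block or without any single MOCK library. These counts are a small part of those of STAT2, whose most abundant transcripts were STAT2-207, annotated as noncoding, and STAT2-210, which encodes 847 residues. STAT2-207 had 73, 1250 and 1367 counts in the MOCK libraries against 1053, 1100 and 1050 in the CYGB libraries. STAT2-210 had 135, 289 and 202 counts in the MOCK libraries against 1034, 213 and 1097 in the CYGB libraries, so that CYGB replicates 1 and 3 stood apart from the other 4 libraries.

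TYK2-210, a shorter coding transcript of 921 residues, had 893, 1421 and 1462 counts in the MOCK libraries against 409, 603 and 670 in the CYGB libraries. All 3 CYGB libraries were below all 3 MOCK libraries, with a log2 fold change of -1.17 and a standard error of 0.30 (adjusted p = 0.863 by edgeR's quasi-likelihood test). The adjusted p lay between 0.0862 and 1 over 12 alternatives. It no longer passed the threshold of the methods with rows without a gene included or without MOCK replicate 2 or 3 or any single CYGB library, where the log2 fold change ran from -1.29 to -0.99. The most abundant transcript, TYK2-205, which encodes 1187 residues, had 2189, 757 and 1079 counts in the MOCK libraries against 1512, 386 and 2732 in the CYGB libraries. Its groups overlapped, and CYGB replicate 2, the low library of the gene as a whole, was its lowest.

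For several genes the sum over transcripts was steady while the leading transcript was not. The leading transcript changed between libraries in 15 of 40 genes with at least 2 tested transcripts (37.5%), against 43.5% of 11478 genes. The following were chosen after their values were seen. ADAR-201, which encodes 931 residues, led in 5 libraries with 17415 to 19477 counts but had 603 in MOCK replicate 1. ADAR-202, which encodes 1226 residues, the length of the interferon-inducible p150 form, had 14746 counts in that library and 218 to 502 in the others. The gene-level count of ADAR in MOCK replicate 1 was 17221, near the other libraries at 18395 to 22090.

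DDX58 also showed an exchange between transcripts, although its gene-level count was less steady than that of ADAR, from 2386 to 3854 over the libraries. DDX58-202, which encodes 925 residues, had 3326, 821 and 202 counts in the MOCK libraries against 3333, 3854 and 2386 in the CYGB libraries, while DDX58-201, with 722 residues, had 0, 1655 and 2650 counts in MOCK and 0 in each CYGB library. TAP2-202 had 1483 and 1851 counts in MOCK replicates 2 and 3 and at most 26 in the other 4 libraries. For IFNGR1, the transcript IFNGR1-207 had 1515, 1863 and 1335 counts in MOCK replicate 1 and CYGB replicates 2 and 3 and 0 in the other 3 libraries, so the exchange fell in both groups. In each of these genes the libraries within a group differed from each other, and a difference between groups in 1 transcript cannot be told apart from that variation here.

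**Figure D4:**
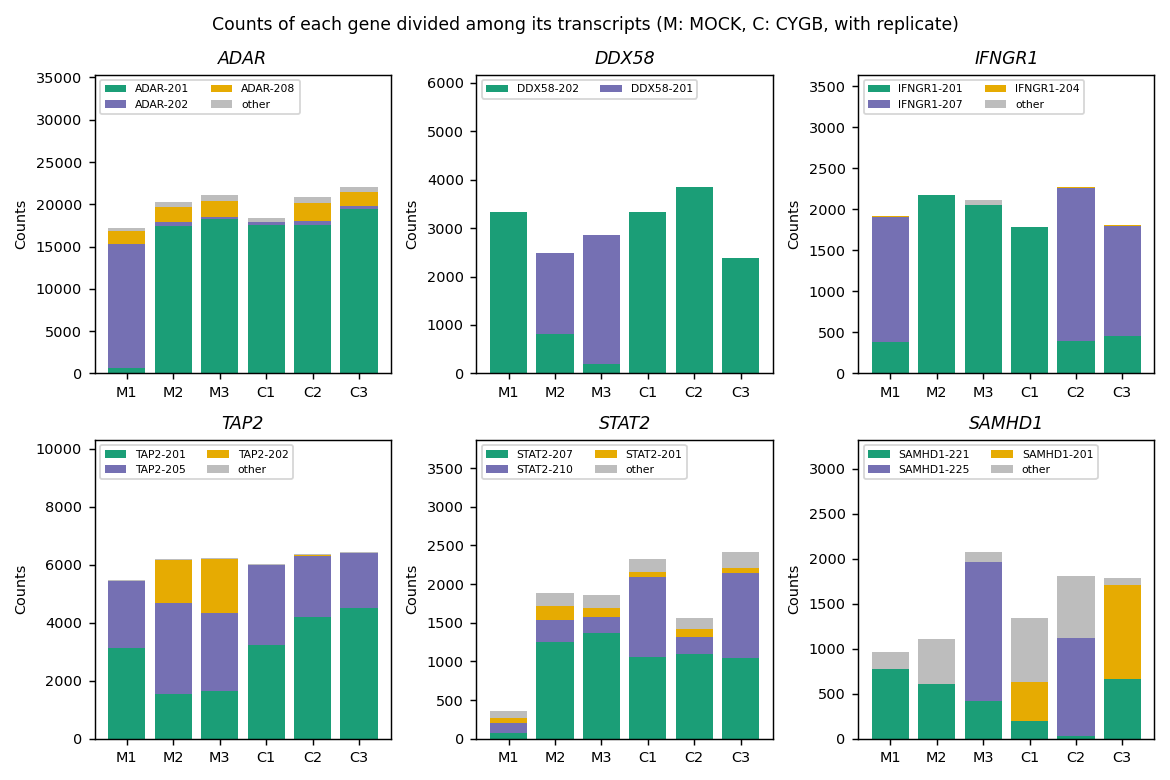
Counts of 6 genes in each library, divided among the 3 most abundant transcripts and all others (stacked bars; M is MOCK and C is CYGB-overexpressing cells, with the replicate number). In ADAR the bars have similar heights while the leading colour changes in MOCK replicate 1, in DDX58 it changes in MOCK replicates 2 and 3, and in IFNGR1 it changes in both groups.

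Other genes of the pathway were read from a further list of 85 genes, all found in the table, with immunoproteasome subunits, class II genes, regulators, further sensors and effectors, interferons and chemokines. Of the 77 tested, 0 passed the threshold of the methods, against 0.565% of all genes by edgeR's quasi-likelihood test. By the same test 0 had an adjusted p under 0.05, against 0.055%, and 0 an unadjusted p of at most 0.05, against 4.54%. The lowest unadjusted p of this test was 0.0552. At the 2 stricter cut-offs the shares of all genes are so small that a count of 0 among 77 genes says little. DESeq2 also put 0 past the threshold of the methods, against 1.32% of all genes. The log2 fold change was above 0 for 37 and below 0 for 40, with a median of -0.016 and a range from -2.29 to 0.76. GBP2, a guanylate-binding protein, marked the lower end with 23, 13 and 42 counts in MOCK and 7, 0 and 9 in CYGB-overexpressing cells (adjusted p = 0.963 by edgeR's quasi-likelihood test), and TRIM22 the upper end with 12 to 38 counts per library. Of the interferon genes, IFNG had 0 counts and IFNB1 26 counts over all 6 libraries. The type III interferons IFNL1, IFNL2 and IFNL3 were detected in every library, with 976, 777 and 891 counts over all 6 and per-length levels of 7.27, 6.72 and 7.79. Their log2 fold changes were -0.43, -0.35 and -0.24, and their unadjusted p-values by edgeR's quasi-likelihood test were 0.213, 0.209 and 0.529. How reads matching several of these interferon genes were counted is not stated, so the division of counts among them is uncertain.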

How the data were processed

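The values deposited by the authors are unnormalized counts of reads per transcript for 6 libraries of HCT116 cells (NEB Next Ultra kit, paired-end reads). The submitters' processing notes name HISAT, HISAT2, DESeq2 and hg19, but 99.6% of the rows with a gene have their GENCODE 29 position, so coordinates are GRCh38. The counting tool, its use of strand and its division of reads among transcripts are not given in the sources used here. Rows without a gene (21225 of 172678) held 18.6 to 19.5% of counts and were left out.

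Counts were summed per gene, filtered with filterByExpr (minimum count 10), scaled by TMM factors and tested by the quasi-likelihood test of edgeR 4.0.16 (limma 3.58.1, R 4.3.3), CYGB against MOCK, with Benjamini-Hochberg adjustment over 19987 genes and, separately, 66609 transcripts. DESeq2 1.42.0 was an alternative. The biological coefficient of variation was 36.6% for genes and 78.9% for transcripts. Lengths came from GENCODE 29. Same-group libraries differed beyond sampling noise (chi-square per gene 77.3 or more) and were counted separately. Steps were tested on simulated data. Figures used matplotlib 3.10.9.

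The list, its role groups, the further genes and the rules were chosen with earlier results of these data known. All 49 genes are named; values in every library are given for genes with an unadjusted p of at most 0.05 or past the threshold, the 6 largest absolute log2 fold changes, genes without overlap and the most abundant gene of each role group. Other genes given in every library (B2M, TYK2, OAS3) were added after their values were seen. Of transcripts, those past the threshold and the 2 most abundant of the same gene are named, and the markers are 6 epithelial, 3 leukocyte, 3 fibroblast and 3 endothelial genes, with 1 further marker not reported here. Alternatives were DESeq2's size factors, DESeq2, the replicate number as a block, a filter at a mean of 50 counts, none at all, rows without a gene included, and leaving out each library.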

Additional observations from a re-analysis of the deposited data

How the results depend on the processing

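The count of genes past the threshold of the methods was 0 under every alternative except without CYGB replicate 3 (range 0 to 1 over the left-out libraries, IFITM2), and that at an adjusted p under 0.05 was 0 under all of them. Unadjusted p of at most 0.05 was reached by 1 gene, by 0 without a filter and by 0 with the replicate block, and by 0 to 2 when a library was left out (IRF3 and BST2 without CYGB replicate 2, OAS1 and SAMHD1 without MOCK replicate 3). Transcripts past the threshold numbered 2, 7 with DESeq2, 1 at a mean of at least 50 counts, 1 with the replicate block, 1 with rows without a gene included, and 1 to 4 when a library was left out. Of the further genes, 0 to 1 passed when a library was left out (APOBEC3F, log2 fold change 1.12, without MOCK replicate 3). The median log2 fold change of the list stayed between 0.0095 and 0.061. The causes were not tested.

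Replicate numbers did not pair the libraries: deviations of same-numbered libraries from their group means correlated at 0.016, 0.0049 and 0.025 across genes. With the number as a block no gene of the list passed the threshold of the methods or an adjusted p under 0.05.

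Direction depended on a left-out library for 23 genes with values near 0 or a wide spread. Ranges over the left-out libraries were -0.0049 to 0.035 for B2M, -0.052 to 0.30 for DDX58, -0.28 to 0.15 for EIF2AK2, -1.44 to 0.78 for HLA-B, -0.047 to 0.075 for HLA-C, -0.14 to 0.17 for IFI27, -0.0011 to 0.15 for IFI35 and -0.15 to 0.11 for IFI6. For other genes they were -0.022 to 0.067 for IFIH1, -0.027 to 0.093 for IFIT3, -0.017 to 0.12 for IFIT5, -0.069 to 0.90 for IFITM1, -0.067 to 0.11 for IFITM3, -0.056 to 0.070 for IFNAR1, -0.048 to 0.15 for IFNAR2 and -0.23 to 0.0075 for IFNGR2. The remaining ranges were -0.070 to 0.21 for IRF7, -0.15 to 0.24 for IRF9, -0.080 to 0.013 for ISG15, -0.031 to 0.021 for JAK1, -0.12 to 0.12 for MAVS, -0.050 to 0.29 for MX1 and -0.53 to 0.12 for TYK2. MAVS was -0.0037 at a mean of at least 50 counts.

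With 3 libraries per group, differences of 2-fold lay inside the interval of 9 genes, and MX2 and IFI44L had too few counts for a test. Division of reads among transcripts limits every value given for a single transcript.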
